A study of Mus musculus with 33 samples.

Results

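The cholesterol and lipid synthesis genes examined here are 31 mouse genes, chosen by symbol from a list that covers sterol synthesis, fatty acid synthesis and the control of both by the SREBP transcription factors. All 31 were found among the 26621 gene rows of the count tables, 30 under the listed symbol and Msmo1 under its older name Sc4mol. By role, 7 act in the mevalonate steps, 11 in the squalene and sterol steps, 5 in SREBP control, 1 (Stard4) in sterol transport and 7 in fatty acid synthesis. The cells were neural stem cells of the hippocampus of mice at postnatal day 0.5, grown on coated plates in medium with bFGF and EGF. RNA-seq was made from cells labelled Nestin-cKO, a conditional knockout of the m6A reader gene Ythdf2, and from cells labelled Nestin-WT, at 0, 2 and 4 h of actinomycin D (5 µM), which blocks transcription, with 3 libraries per genotype and time. From untreated WT cells there were 3 m6A antibody pull-downs with 3 inputs, and 3 YTHDF2 pull-downs with 3 IgG pull-downs and 3 inputs. The labels give neither the deleted part of Ythdf2 nor the number of animals behind a culture, so p-values measure only the spread between these libraries, which may be technical.

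Cholesterol is built from acetyl-CoA through mevalonate, isoprenoid units, squalene and lanosterol. The genes of the route share a control: SCAP carries the SREBP precursors out of the endoplasmic reticulum when sterols are low, INSIG proteins hold SCAP back when sterols are high, and the released SREBPs switch on the synthesis genes and INSIG1. SREBP1 acts more on fatty acid genes and SREBP2 more on sterol genes. In the brain, cholesterol is made locally because the blood-brain barrier keeps lipoproteins out, and neural stem cells make fatty acids as they divide. m6A is a methyl mark on adenosines of messenger RNA, and YTHDF2 is a protein that binds marked RNA and is known for promoting its decay.

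Because the members share transcriptional control, the promoter windows of 6 of them are shown. Hmgcs1, Idi1, Nsdhl and Acat2 were lower in libraries labelled cKO at 2 or all 3 of the times below. Insig1 went the other way at 0 h, and Msmo1 lost the most RNA under actinomycin D. Each window runs from 250 bases before to 50 bases after a RefSeq start site in GRCm38.p6. Windows were given for 24 of the 31 genes. The Hmgcs1 window is chr13:119690101-119690400 (plus strand), Idi1 is chr13:8885356-8885655 (plus), Nsdhl is chrX:72918271-72918570 (plus), Acat2 is chr17:12960676-12960975 (minus), Insig1 is chr5:28071162-28071461 (plus) and Msmo1 is chr8:64733529-64733828 (minus). Each is written 5′ to 3′ on the gene's strand, with capitals on matches to the SREBP element TCACNCCAC or to CCAAT, the core of the element bound by the factor NF-Y, on either strand. No match to one motif overlapped a match to the other in these windows.
Hmgcs1: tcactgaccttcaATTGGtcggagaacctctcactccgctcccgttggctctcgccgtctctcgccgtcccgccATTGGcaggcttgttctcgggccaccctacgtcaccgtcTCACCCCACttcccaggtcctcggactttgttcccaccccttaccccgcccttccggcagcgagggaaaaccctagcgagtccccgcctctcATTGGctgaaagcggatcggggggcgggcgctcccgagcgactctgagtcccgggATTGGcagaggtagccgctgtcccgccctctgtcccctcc
Idi1: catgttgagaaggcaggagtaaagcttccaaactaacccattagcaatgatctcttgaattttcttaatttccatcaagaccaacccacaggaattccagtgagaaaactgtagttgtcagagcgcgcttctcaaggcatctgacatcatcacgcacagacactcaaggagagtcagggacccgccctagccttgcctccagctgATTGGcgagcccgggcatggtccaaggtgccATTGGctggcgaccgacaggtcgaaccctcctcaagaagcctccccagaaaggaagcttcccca
Nsdhl: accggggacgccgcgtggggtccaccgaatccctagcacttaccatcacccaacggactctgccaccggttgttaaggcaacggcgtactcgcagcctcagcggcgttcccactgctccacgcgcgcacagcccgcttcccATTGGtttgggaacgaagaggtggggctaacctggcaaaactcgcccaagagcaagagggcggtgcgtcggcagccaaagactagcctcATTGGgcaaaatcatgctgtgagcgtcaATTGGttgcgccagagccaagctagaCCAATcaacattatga
Acat2: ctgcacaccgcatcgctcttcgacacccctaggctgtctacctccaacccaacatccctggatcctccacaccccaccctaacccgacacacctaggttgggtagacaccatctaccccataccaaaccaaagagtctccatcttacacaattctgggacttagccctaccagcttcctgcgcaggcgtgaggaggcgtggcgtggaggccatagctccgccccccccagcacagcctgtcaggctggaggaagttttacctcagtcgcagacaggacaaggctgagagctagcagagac
Insig1: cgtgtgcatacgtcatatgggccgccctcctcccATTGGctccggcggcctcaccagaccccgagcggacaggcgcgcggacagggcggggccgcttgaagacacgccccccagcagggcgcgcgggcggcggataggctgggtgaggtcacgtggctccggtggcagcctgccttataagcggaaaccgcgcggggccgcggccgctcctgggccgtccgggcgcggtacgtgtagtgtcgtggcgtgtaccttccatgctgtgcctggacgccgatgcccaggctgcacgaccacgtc
Msmo1: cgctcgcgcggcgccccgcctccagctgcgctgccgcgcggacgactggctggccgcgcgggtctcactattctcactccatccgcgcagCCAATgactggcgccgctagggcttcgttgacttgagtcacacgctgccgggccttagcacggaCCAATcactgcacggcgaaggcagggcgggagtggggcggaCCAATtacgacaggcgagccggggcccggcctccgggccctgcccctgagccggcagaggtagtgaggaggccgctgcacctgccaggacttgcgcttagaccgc
TCACNCCAC was found in 1 of the 32 windows of these 24 genes, that of Hmgcs1, where it begins at base -137 from the start site, and in 408 of all 32851 windows (1.24%). CCAAT was found in 21 of the 32 windows, from 20 of the 24 genes, and in 37.4% of all windows. Nsdhl and Hmgcs1 each held 4 matches to CCAAT, Msmo1 held 3, Idi1 held 2, Insig1 held 1 and Acat2 held none. The palindromic E-box TCACGTGA was in none of the 32 windows and in 0.974% of all windows. These matches describe the letters in the windows only.

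Total counts were 10257329 to 21353383 in the RNA-seq libraries, 12892222 to 28334300 in the m6A series and 8419106 to 23097887 in the YTHDF2 series. Ythdf2 itself went against the label cKO. At 0 h it had 736 to 3117 CPM (counts per TMM-normalized library, as everywhere below) in libraries labelled cKO, against 219 to 258 CPM in WT libraries, and at 4 h 1362 to 1433 CPM in libraries labelled cKO against 60.4 to 88.5 CPM in WT libraries. The log2 difference, labelled cKO over WT, was 2.74 ± 0.37 at 0 h (SE, edgeR quasi-likelihood test, adjusted p = 2.7e-04), so each direction between genotypes below holds for libraries as labelled. Neural stem cell markers summed to 5857 to 6892 CPM in libraries labelled cKO and 6229 to 8057 CPM in WT libraries at 0 h, and of these markers Hes5 was under 1 CPM in libraries labelled cKO. Other markers moved with the genotype label at 0 h. Of all tested genes, 7.71% were higher and 9.89% lower in libraries labelled cKO (edgeR adjusted p under 0.05). All 6 tested of 7 fibroblast markers were higher in libraries labelled cKO, with a summed level of 17.0 to 58.5 CPM against 0.877 to 1.72 CPM in WT. Of 12 tested oligodendrocyte lineage markers 6 were lower and 1 higher (276 to 604 CPM in libraries labelled cKO, 560 to 701 CPM in WT), with Mag at 0 in libraries labelled cKO and under 1 CPM in WT. Of 8 astrocyte markers 4 were lower and none higher (867 to 1197 CPM in libraries labelled cKO, 1660 to 2535 CPM in WT), and of 6 neuron markers 3 were lower and 1 higher (354 to 450 CPM in libraries labelled cKO, 1003 to 1083 CPM in WT). Microglia markers summed to at most 3.90 CPM and endothelial markers to at most 2.63 CPM at 0 h in either genotype, with Csf1r, Tmem119, Cldn5 and Cdh5 at 0. The part of these marker differences in the results between genotypes was not tested, and in bulk RNA fewer cells of a type and less RNA per cell cannot be told apart.

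Per transcript length, the members spanned more than 3 orders of magnitude. In WT libraries at 0 h, Hmgcs1, which encodes the cytosolic HMG-CoA synthase of the mevalonate route, was highest at 2576 ± 145 TPM, a level scaled by transcript length and library (SD, n = 3). Msmo1, the sterol C4-methyl oxidase, followed at 1744 ± 115 TPM, then Acat2, the cytosolic acetoacetyl-CoA thiolase, at 1078 ± 41.2 TPM, and Fdps, farnesyl diphosphate synthase, at 710 ± 91.6 TPM. No neighbours among these 4 overlapped over the 3 WT libraries. Scd2, a stearoyl-CoA desaturase of the brain, at 438 ± 22.8 TPM, Fdft1, squalene synthase, at 418 ± 17.2 TPM and Sc5d, the lathosterol desaturase, at 411 ± 18 TPM came next and overlapped in level. At the low end were Scap at 4.69 ± 0.603 TPM, Srebf2 at 4.40 ± 1.36 TPM, Fasn, fatty acid synthase, at 2.91 ± 0.513 TPM and Srebf1 at 0.915 ± 0.260 TPM. Scap and Srebf2 overlapped, while Fasn lay below both and Srebf1 below Fasn. Between these ends, the 11 genes from Cyp51 (170 ± 26.4 TPM) down to Ebp (69.0 ± 5.49 TPM) overlapped each with the next. Together the 31 genes took 0.876% to 1.13% of all counts in libraries labelled cKO and 1.31% to 1.38% in WT libraries at 0 h.

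**Figure D1:**
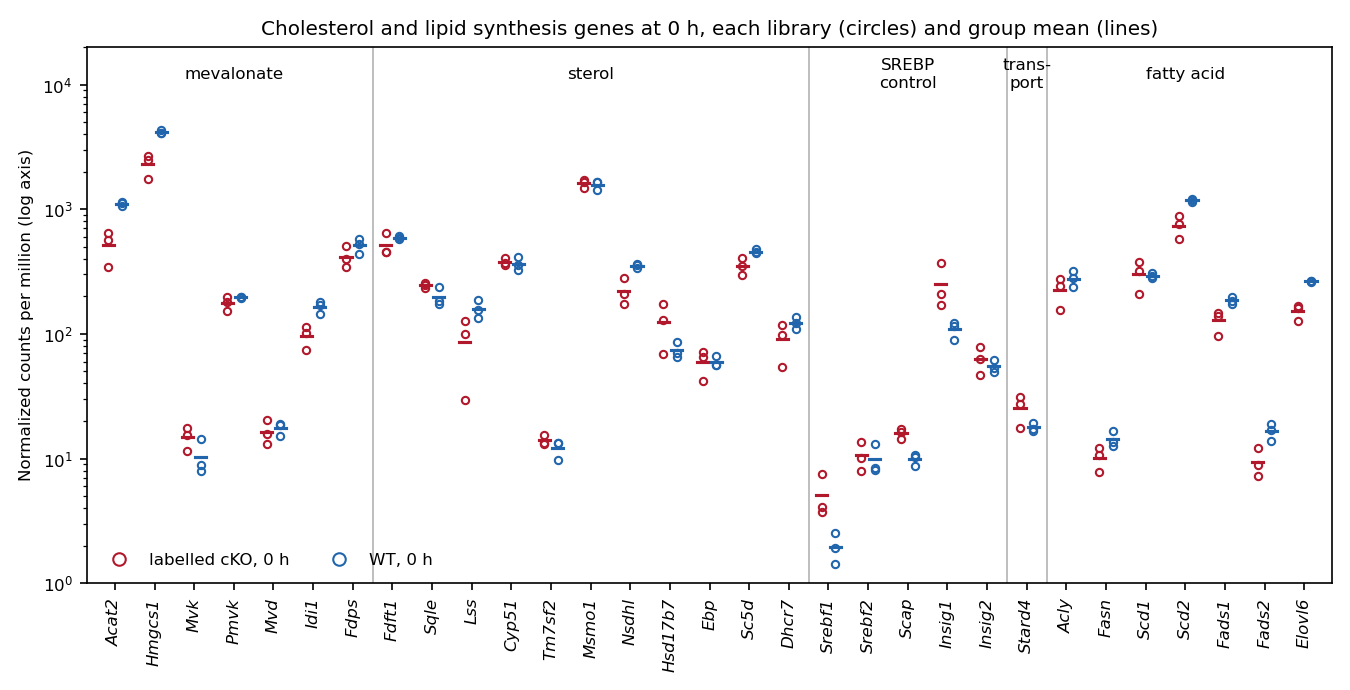
CPM (log axis) of each of the 31 genes at 0 h of actinomycin D, grouped by role, with a circle per library and a line at the mean of the 3 libraries, for libraries labelled cKO (red, left) and WT (blue, right). Hmgcs1, Acat2, Elovl6 and Fads2 are among the 11 genes that lie lower in libraries labelled cKO without overlap. Insig1 is among the 3 that lie higher without overlap. The share of all genes without overlap was not counted.

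At 0 h, the question was how the genotypes differed before any loss of RNA. Of the 31 members, 5 were lower in libraries labelled cKO, where 9.89% of all 14029 tested genes were lower, and 1 was higher, where 7.71% of all genes were higher. Here and below, called means an edgeR quasi-likelihood test with a Benjamini-Hochberg adjusted p under 0.05 over all genes. The median log2 difference of the members was -0.15, against -0.0053 over all tested genes. Among the mevalonate genes 2 of 7 fell, among the sterol genes 1 of 11 (Nsdhl), among the fatty acid genes 2 of 7, and the 1 gene that rose belongs to SREBP control.

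Hmgcs1 had 1737, 2676 and 2481 CPM in libraries labelled cKO, against 4333, 4092 and 4106 CPM in WT libraries. The groups did not overlap, and the log2 difference was -0.86 ± 0.19 (SE, edgeR adjusted p = 0.00835). Acat2 had 645, 565 and 342 CPM against 1122, 1060 and 1135 CPM in WT libraries, a log2 difference of -1.10 ± 0.37 (edgeR adjusted p = 0.0493), with replicate 3 labelled cKO lowest. Nsdhl, a dehydrogenase that works with Msmo1 in removing the C4 methyl groups of the sterol ring, had 175, 280 and 210 CPM against 363, 338 and 356 CPM in WT libraries, and fell by 0.67 on the log2 scale (SE 0.20, edgeR adjusted p = 0.0335). In the fatty acid group, Fads2, the delta-6 desaturase of polyunsaturated fatty acids, had 7.20, 8.86 and 12.2 CPM against 17.1, 19.0 and 13.8 CPM in WT libraries (log2 difference -0.82 ± 0.21, edgeR adjusted p = 0.0178). Elovl6, the elongase of palmitate, had 162, 168 and 127 CPM against 260, 263 and 266 CPM in WT libraries (log2 difference -0.78 ± 0.27), just past the threshold at an edgeR adjusted p of 0.04999. All 5 lay below the WT range in every library labelled cKO. Of the 31 members, called or not, 11 did so and 3 lay above that range. How many of all genes had no overlap was not counted.

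Insig1 went the other way. It had 369, 210 and 169 CPM in libraries labelled cKO, against 89.5, 115 and 123 CPM in WT libraries, and rose by 1.19 ± 0.31 on the log2 scale (edgeR adjusted p = 0.0162). The first library labelled cKO was the highest for Insig1 and also the lowest for Hmgcs1, Nsdhl and Lss (lanosterol synthase; 29.3 CPM, against 127 and 99.8 CPM in the other libraries labelled cKO and 133 to 187 CPM in WT). Without that library, or without the first WT library of 0 h, the Insig1 difference no longer passed. Stard4, a carrier that moves cholesterol between membranes, had 17.6, 31 and 27.5 CPM against 17.4, 16.7 and 19.3 CPM in WT libraries. Hsd17b7, a sterol ketoreductase, had 68.6, 130 and 175 CPM against 69.7, 65.3 and 86.3 CPM in WT libraries. Neither passed (edgeR adjusted p = 0.178 for Stard4 and 0.0583 for Hsd17b7), and both overlapped in 1 library labelled cKO, again the first.

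The other fixed genes of the core did not pass at 0 h. Scd2 had 579, 756 and 875 CPM in libraries labelled cKO against 1210, 1178 and 1151 CPM in WT libraries, with no overlap (log2 difference -0.68 ± 0.24, edgeR adjusted p = 0.0559). Sqle, squalene epoxidase, had 244, 235 and 258 CPM against 236, 183 and 172 CPM in WT libraries. Srebf2 had 13.7, 10.1 and 7.97 CPM against 13.1, 8.43 and 8.12 CPM in WT libraries, a log2 difference of 0.10 ± 0.27 (edgeR adjusted p = 0.826). Fasn had 7.78, 12.2 and 10.6 CPM against 16.7, 13.6 and 12.5 CPM in WT libraries, a log2 difference of -0.49 ± 0.29 (edgeR adjusted p = 0.247). All 5 SREBP control genes had positive differences, with a median of 0.69, and Scap and Srebf1 also lay above the WT range without passing.

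The 0 h calls were the least firm of the genotype calls. None of the 6 kept its call in all 24 fits that left out a single library or all 3 times of a culture, and the count of lower members ranged from 0 to 8. Without replicate 1, 2 and 3 of cKO at 0 h it was 3, 2 and 3, without replicate 1, 2 and 3 of WT at 0 h it was 1, 1 and 2, and when all times of any WT replicate were left out it was 0. The fit shares its spread over all times, so libraries of later times moved it as well: it was 2 without all times of the second cKO replicate and 8 without all times of the third. It was also 8 without the third cKO library of 2 h, and 2 or 3 without the second cKO library of 2 h, the first or the second of 4 h, or any WT library of 2 or 4 h. The count of higher members was 0 without the first WT library of 0 h or any WT culture, 5 without the first cKO culture and 2 without the third, and 2 or 3 without the first or the third cKO library of 2 h or any cKO library of 4 h. With RLE size factors 2 members were higher and 3 lower, where 1202 of all tested genes were higher and 1213 lower. With library size alone 2 members were higher and 4 lower, where 1207 of all tested genes were higher and 1162 lower.

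At 2 h, 10 members were lower in libraries labelled cKO and none was higher, where 8.54% of all tested genes were lower and 8.52% were higher (edgeR). At an unadjusted p under 0.05 1 member was higher and 15 were lower, where 17.8% of all tested genes were higher and 15.9% lower. DESeq2 called 1 member higher and 15 lower, where it called 1655 of all tested genes higher and 1615 lower. The median log2 difference was -0.51 for the members, against 0.053 for all tested genes. The 10 comprised 4 of 7 mevalonate genes, 3 of 11 sterol genes and 3 of 7 fatty acid genes, and no gene of SREBP control or sterol transport.

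Hmgcs1 had 2352, 1834 and 1439 CPM in libraries labelled cKO at 2 h, against 5116, 5050 and 4624 CPM in WT libraries (log2 difference -1.39 ± 0.20, edgeR adjusted p = 3.2e-04). Sc5d had 278, 219 and 193 CPM against 470, 477 and 455 CPM in WT libraries (-1.02 ± 0.15, edgeR adjusted p = 4.6e-04). These were the only 2 of the 10 that stayed past the threshold in each of the 24 fits that left out a library or a culture. Idi1, the isomerase that makes dimethylallyl diphosphate, had 94.1, 60.7 and 29.1 CPM against 159, 143 and 150 CPM in WT libraries (-1.30 ± 0.33, edgeR adjusted p = 0.0153). Acat2 had 799, 551 and 230 CPM against 1504, 1311 and 1386 CPM in WT libraries (-1.41 ± 0.37, edgeR adjusted p = 0.0185). Both were lowest in the third library labelled cKO, as was Elovl6 (195, 125 and 74.6 CPM against 241, 247 and 238 CPM in WT). Mvd, which decarboxylates mevalonate diphosphate, had 7.68, 8.81 and 9.69 CPM against 19.0, 15.5 and 16.5 CPM in WT libraries, and fell by 0.97 on the log2 scale (SE 0.21, edgeR adjusted p = 0.0068). Cyp51, the lanosterol demethylase, had 216, 220 and 227 CPM against 427, 364 and 313 CPM in WT libraries, and fell by 0.74 on the log2 scale (SE 0.15, edgeR adjusted p = 0.00535). Scd2 had 1153, 740 and 608 CPM against 1733, 1815 and 1523 CPM in WT libraries (-1.02 ± 0.24, edgeR adjusted p = 0.00985). Nsdhl and Fads2 stayed lower, by -0.85 ± 0.20 and -0.99 ± 0.21 on the log2 scale.

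Insig1 overlapped between the genotypes at 2 h, with 71.7, 93.2 and 105 CPM in libraries labelled cKO against 79.2, 89.3 and 102 CPM in WT libraries, a log2 difference of -0.0052 ± 0.30 (edgeR adjusted p = 0.993). Sqle had 135, 146 and 163 CPM against 202, 162 and 161 CPM in WT libraries. Srebf2 had 10.2, 13.8 and 12.1 CPM against 14.1, 11.2 and 9.84 CPM in WT libraries. Fasn had 12, 10.4 and 8.01 CPM against 16.0, 16.8 and 13.0 CPM in WT libraries. Of these 3, only Fasn had no overlap, and none passed (edgeR adjusted p of 0.409, 0.936 and 0.165). Leaving out a library or culture moved the count of lower members between 2 and 18. It was 5 without the third cKO library of 2 h, 18, 6 and 11 without all times of cKO replicates 1, 2 and 3 in turn, and 2, 5 and 5 without all times of WT replicates 1, 2 and 3 in turn. Summed markers at 2 h, labelled cKO against WT, were 4437 to 6800 against 6821 to 9305 CPM (neural stem cell), 1174 to 1579 against 2641 to 4581 CPM (astrocyte) and 18.8 to 66.3 against 1.69 to 2.24 CPM (fibroblast). The part of these markers in the 2 h result was not tested.

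At 4 h, 14 members were lower in libraries labelled cKO and none was higher, where 9.11% of all tested genes were lower and 11.0% were higher (edgeR). At an unadjusted p under 0.05 2 members were higher and 16 were lower, where 20.1% of all tested genes were higher and 15.4% lower. DESeq2 called 1 member higher and 16 lower, where it called 1871 of all tested genes higher and 1733 lower. The median log2 difference was -0.50 for the members, against 0.084 for all tested genes. The mevalonate group held 5 of the 14 (of 7 members), the sterol group 5 (of 11) and the fatty acid group 4 (of 7). All 10 members lower at 2 h were lower at 4 h as well, and 884 of all tested genes (6.3%) were lower at both times. At all 3 times 5 members (Hmgcs1, Acat2, Nsdhl, Fads2 and Elovl6) were lower, as were 584 of all tested genes (4.16%). Same-numbered libraries within a genotype deviated together, so the 3 times are not independent repeats.

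Hmgcs1 had 2800, 2466 and 1829 CPM in libraries labelled cKO at 4 h, against 6004, 5719 and 6189 CPM in WT libraries (log2 difference -1.34 ± 0.20, edgeR adjusted p = 4.2e-04). Sc5d had 252, 258 and 238 CPM against 550, 534 and 580 CPM in WT libraries (-1.15 ± 0.15, edgeR adjusted p = 1.6e-04). Mvd had 8.41, 8.06 and 11.7 CPM against 21.3, 18.8 and 18.2 CPM in WT libraries (-1.05 ± 0.21, edgeR adjusted p = 0.00333). These 3 were the only ones of the 14 to keep the call in all 24 fits with libraries or cultures left out, and their groups were well separated. Acat2 had 840, 566 and 289 CPM against 1641, 1426 and 1800 CPM in WT libraries (-1.52 ± 0.37, edgeR adjusted p = 0.0108). Idi1 had 96.6, 69.6 and 41.3 CPM against 184, 154 and 181 CPM in WT libraries (-1.32 ± 0.33, edgeR adjusted p = 0.0116). In both genes the third library labelled cKO was the lowest and the first the highest. Scd2 had 1478, 1157 and 774 CPM against 2508, 2153 and 2021 CPM in WT libraries (-0.97 ± 0.24, edgeR adjusted p = 0.0108). Fasn joined the called genes, with 12.6, 7.61 and 6.73 CPM against 25.5, 13.8 and 13.3 CPM in WT libraries (-0.97 ± 0.29, edgeR adjusted p = 0.0288). Msmo1 had 328, 320 and 550 CPM against 551, 598 and 719 CPM in WT libraries, where the highest library labelled cKO lay just under the lowest WT library (-0.64 ± 0.19, edgeR adjusted p = 0.0291). Nsdhl, Cyp51, Elovl6, Fdps, Fdft1 and Fads2 were lower by log2 values of -0.48 to -0.88, with edgeR adjusted p of 0.00898 to 0.0458. In the 24 fits Fads2 missed the threshold 18 times, Fdft1 15, Elovl6 7, Fdps 6, Nsdhl 4 and Cyp51 2 times.

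Insig1 had 48.7, 73.3 and 121 CPM in libraries labelled cKO at 4 h, against 92.2, 82.3 and 113 CPM in WT libraries. Sqle had 87.8, 114 and 157 CPM against 103, 98.1 and 123 CPM in WT libraries. Srebf2 had 11.8, 14.5 and 14.6 CPM against 22.7, 13.7 and 13.6 CPM in WT libraries. All 3 overlapped, and none passed (edgeR adjusted p of 0.585, 0.632 and 0.447). With library size alone the 4 h split was 2 higher and 8 lower, while the median of all genes moved by this scaling to 0.27. It called 2499 of all tested genes higher and 954 lower. The count of lower members was 9 without the second and 5 without the third cKO library of 4 h, 9 without the third WT library of 4 h, 5 without all times of the second cKO replicate, and 4, 5 and 5 without all times of WT replicates 1, 2 and 3 in turn. The 31 genes took 0.703% to 0.867% of counts in libraries labelled cKO and 1.26% to 1.40% in WT libraries at 4 h. Fibroblast markers still differed at 4 h (26.5 to 71.1 CPM in libraries labelled cKO and 2.45 to 2.78 CPM in WT). Astrocyte markers differed as well (1464 to 1735 CPM in libraries labelled cKO and 3513 to 5200 CPM in WT). Summed neural stem cell markers, which overlapped at 0 h, did not at 4 h (5043 to 7549 CPM in libraries labelled cKO, 8777 to 10852 CPM in WT). Neuron markers (298 to 878 CPM against 1258 to 1532 CPM in WT) and oligodendrocyte lineage markers (385 to 507 CPM against 600 to 822 CPM in WT) did not overlap either. Of the fibroblast markers 6 of 6 tested were higher, where 11.0% of all tested genes were higher. Of the astrocyte markers 7 of 8 were lower, where 9.11% were lower. The part of these markers in the result was not tested.

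**Figure D2:**
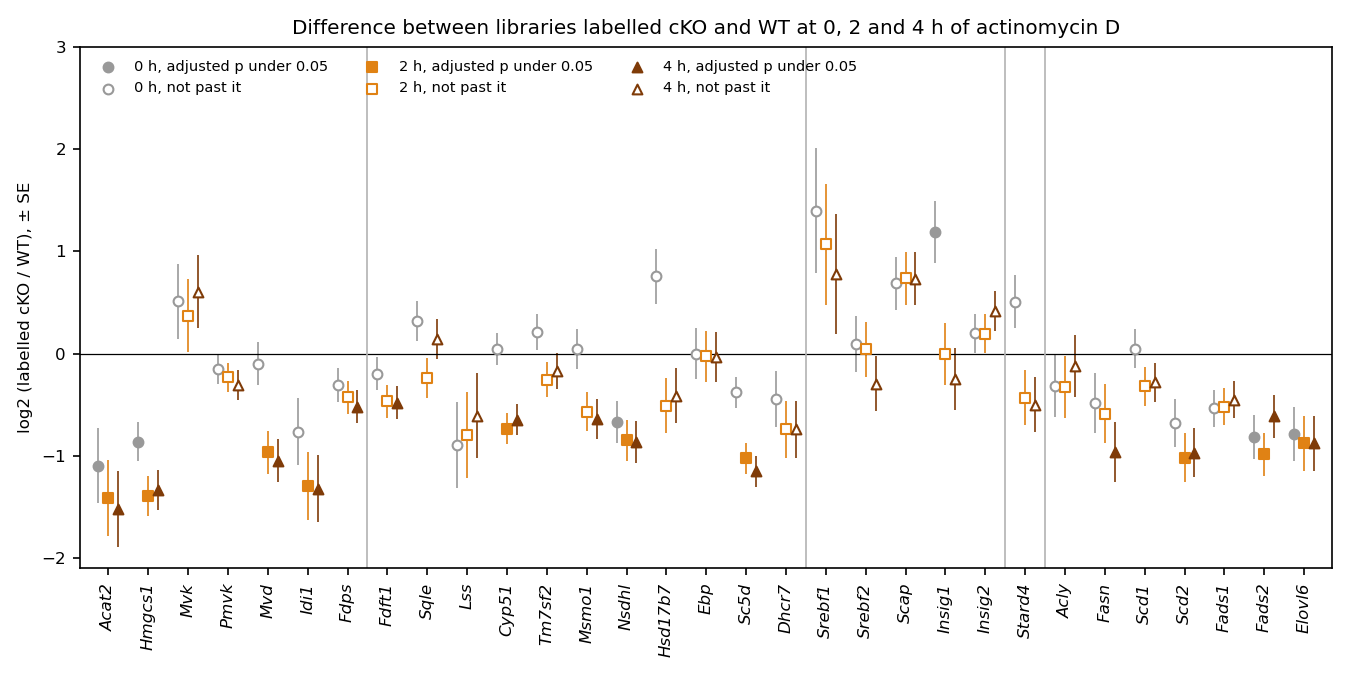
Log2 difference between libraries labelled cKO and WT (vertical axis, ± SE) for each of the 31 genes at 0 h (grey circles), 2 h (orange squares) and 4 h (brown triangles) of actinomycin D, filled where the adjusted p was under 0.05. Mevalonate and fatty acid genes lie mostly below 0 at all times, and Insig1 is above 0 at 0 h and near 0 at 2 h.

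The loss of each RNA under actinomycin D was followed by comparing 4 h with 0 h within a genotype. CPM values are relative to all other RNA in the library, so a gene whose RNA is lost more slowly than the average has a higher CPM at 4 h without any new RNA. In libraries labelled cKO, 8 members were lower at 4 h, where 18% of all tested genes were lower, and 4 were higher, where 12.1% were higher (edgeR). With the culture as a replicate block, which the data paired within a genotype, 10 were lower and 8 higher. That fit called 3239 of all 14029 tested genes lower and 2966 higher. With cytosolic ribosomal protein genes as the reference, which moved the median of all genes from 0.083 to -0.64, 18 were lower and none higher. There 5457 of all tested genes were lower and 32 higher. With limma on log2(TPM + 1) 10 members were lower and 1 higher, where 3841 of all tested genes were lower and 278 higher. With the 6 compared libraries alone 4 were lower and 1 higher, where 1298 of all tested genes were lower and 149 higher. In WT libraries 2 members were lower at 4 h, where 24.2% of all tested genes were lower, and 9 were higher, where 15.6% were higher (edgeR). That split depended on the scaling. With ribosomal protein genes as the reference (median of all genes -0.72) 9 were lower and none higher, where 5969 of all tested genes were lower and 45 higher. With library size alone (median -0.33) 5 were lower and 2 higher, where 4412 of all tested genes were lower and 698 higher. With limma on log2(TPM + 1) 5 were lower and 1 higher, where 5179 of all tested genes were lower and 342 higher.

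Msmo1 lost the most in both genotypes. In libraries labelled cKO it had 1663, 1729 and 1474 CPM at 0 h, 749, 569 and 566 CPM at 2 h and 328, 320 and 550 CPM at 4 h. In WT libraries it had 1425, 1656 and 1640 CPM, 853, 976 and 963 CPM, and 551, 598 and 719 CPM at the same times. At 4 h the mean was 24.6% of the 0 h mean in libraries labelled cKO and 39.5% in WT libraries, with log2 changes of -2.02 ± 0.20 (edgeR adjusted p = 1.3e-06) and -1.34 ± 0.20 (edgeR adjusted p = 4.8e-05). Sqle, a step of the route known for tight control, was at 48.5% of its 0 h mean in libraries labelled cKO and 54.8% in WT libraries at 4 h, with log2 changes of -1.04 ± 0.20 (edgeR adjusted p = 7.4e-04) and -0.87 ± 0.20 (edgeR adjusted p = 0.00211). Both genes were lower at 4 h in both genotypes under every scaling tried. Msmo1 kept its call with any library or culture left out in both genotypes, and Sqle kept it in libraries labelled cKO but not in WT libraries without all times of the first WT replicate (log2 change -0.60, edgeR adjusted p = 0.104).

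Another 6 members were lower at 4 h than at 0 h in libraries labelled cKO alone by the threshold, a difference between genotypes that is tested as a slope below. Stard4 had 17.6, 31 and 27.5 CPM at 0 h, 11.8, 11.7 and 5.57 CPM at 2 h and 9.16, 7.04 and 9.73 CPM at 4 h (log2 change at 4 h -1.55 ± 0.27, edgeR adjusted p = 3.7e-04). In WT libraries it had 17.4, 16.7 and 19.3 CPM, 13.0, 14.9 and 11.6 CPM, and 13.7, 11.5 and 11.4 CPM at the same times (-0.54 ± 0.27, edgeR adjusted p = 0.118). Insig1 was at 36.1% of its 0 h mean at 2 h and 32.5% at 4 h in libraries labelled cKO, and at 82.7% and 87.9% in WT libraries, with log2 changes at 4 h of -1.62 ± 0.31 (edgeR adjusted p = 7.8e-04) and -0.19 ± 0.30 (edgeR adjusted p = 0.657). Without the first cKO library of 0 h, or without all times of its culture, the highest at 0 h, the Insig1 change still passed, at -0.97 on the log2 scale without the culture. Hsd17b7 (-1.10 ± 0.27), Mvd (-0.80 ± 0.21), Cyp51 (-0.54 ± 0.15) and Sc5d (-0.50 ± 0.15) also fell in libraries labelled cKO, with edgeR adjusted p of 0.00516 to 0.019. Mvd, Cyp51 and Sc5d were lower at 2 h than at 4 h by their means. Mvd was at 53.4% and 57.5%, Cyp51 at 58.6% and 68.6% and Sc5d at 65.5% and 70.9% of the 0 h mean at 2 and 4 h in libraries labelled cKO, and the same genes stood at 97.1% to 121% in WT libraries.

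Of the 7 fatty acid genes, 2 were higher at 4 h in libraries labelled cKO and 4 in WT libraries. Fads2 had 7.20, 8.86 and 12.2 CPM at 0 h, 11.3, 14.8 and 14.2 CPM at 2 h and 19.5, 20.9 and 24.6 CPM at 4 h in libraries labelled cKO. In WT libraries it had 17.1, 19.0 and 13.8 CPM, 28.0, 26.9 and 24.9 CPM, and 38.9, 31.7 and 28.9 CPM at the same times. The log2 changes were 1.20 ± 0.21 (edgeR adjusted p = 4.4e-04) in libraries labelled cKO and 1.00 ± 0.21 (edgeR adjusted p = 0.00121) in WT libraries. Tm7sf2, a sterol reductase gene that overlaps Vps51 in the annotation, rose relative to other RNA by 0.83 ± 0.18 in libraries labelled cKO and 1.21 ± 0.18 in WT libraries, and Fads1, the delta-5 desaturase, by 0.75 ± 0.18 in libraries labelled cKO and 0.67 ± 0.18 in WT libraries, though Fads1 turned negative in both genotypes with ribosomal protein genes as the reference. Mvk, mevalonate kinase, passed in libraries labelled cKO alone (0.98 ± 0.36, edgeR adjusted p = 0.0487), and its groups overlapped. It missed the threshold in 18 of the 24 fits that left out a library or culture. In WT libraries Scd1 (0.77 ± 0.19), Scd2 (0.92 ± 0.24) and Srebf2 (0.75 ± 0.27) were also higher, as were Hmgcs1 (0.52 ± 0.19), Pmvk (0.47 ± 0.15) and Fdps (0.43 ± 0.16), and these last 3 turned negative with ribosomal protein genes as the reference. Scd2 in WT libraries had 1210, 1178 and 1151 CPM at 0 h, 1733, 1815 and 1523 CPM at 2 h and 2508, 2153 and 2021 CPM at 4 h, 189% of the 0 h mean. Fasn did not pass in either genotype (log2 changes of -0.18 ± 0.29 in libraries labelled cKO and 0.30 ± 0.29 in WT libraries).

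Some counts of the time comparisons rested on single cultures. In libraries labelled cKO the count of lower members was 4 without all times of the second cKO replicate, and that of higher members was 7 without all times of the third. In WT libraries the count of higher members was 5 without the second WT library of 0 h, and 5 and 3 without all times of the first and second WT replicate, and that of lower members was 1 without all times of the first.

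**Figure D3:**
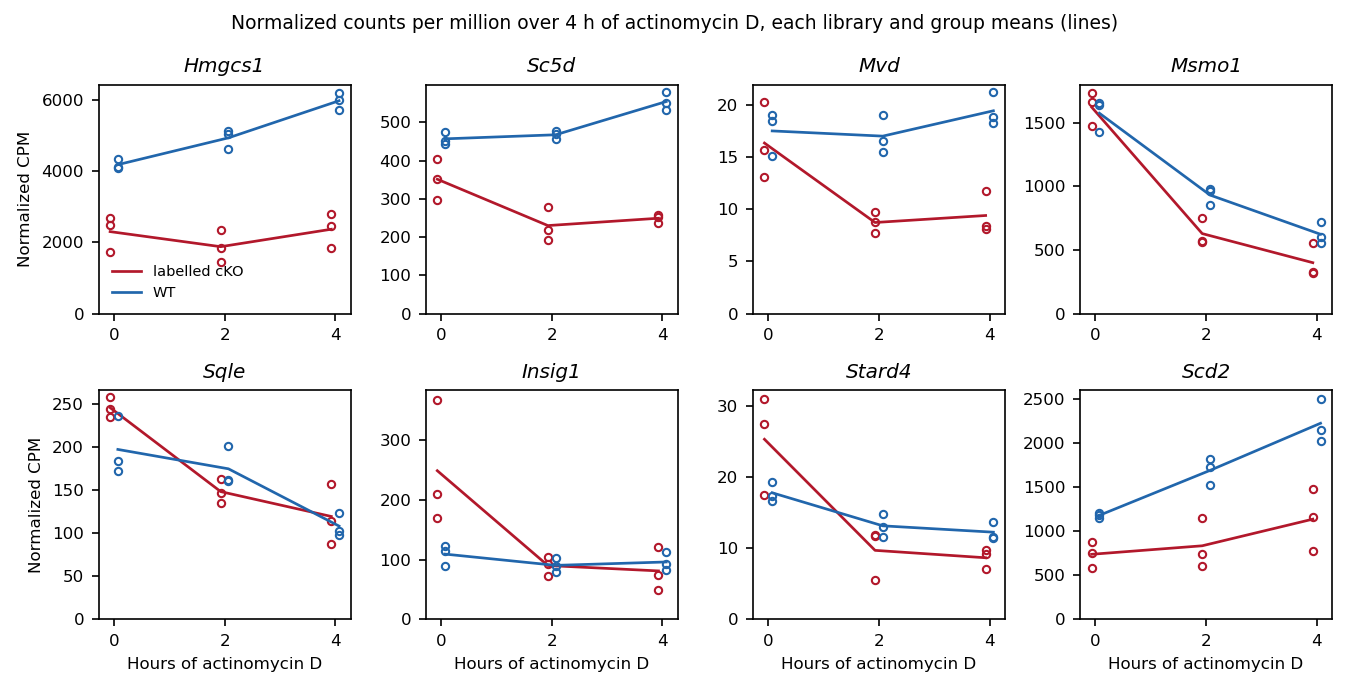
CPM against hours of actinomycin D for 8 of the genes, with a circle per library and a line through the means of 3 libraries, for libraries labelled cKO (red) and WT (blue). Msmo1 and Sqle fall in both, Insig1 starts higher in libraries labelled cKO and overlaps WT at 2 h, Stard4 overlaps WT at 0 h, and Hmgcs1 and Scd2 stay lower in libraries labelled cKO.

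Whether the genotypes differed in the loss itself was tested as the difference in slope over the 3 times (labelled cKO minus WT, log2 per hour). The slope is a straight line, while Mvd, Cyp51 and Sc5d stood lower at 2 h than at 4 h in libraries labelled cKO. A difference in loss within the first 2 h was not tested on its own. No member passed in either direction, where 0.00713% of all tested genes had a higher slope and 0% a lower one (edgeR). With the culture as a replicate block, 65 of all tested genes had a higher slope and 24 a lower one, and no member passed. DESeq2 gave 45 and 19 such genes. At an unadjusted p under 0.05 none of the members had a higher slope and 7 had a lower one, against 6.07% and 2.37% of all tested genes, and DESeq2 called no member. The 7 were Insig1 (-0.36 ± 0.11 log2 per hour), Hsd17b7 (-0.29 ± 0.11), Stard4 (-0.25 ± 0.10), Mvd (-0.24 ± 0.08), Sc5d (-0.19 ± 0.06), Cyp51 (-0.17 ± 0.07) and Msmo1 (-0.17 ± 0.07), with edgeR adjusted p of 0.299 to 0.506. The slope was negative for 24 of the 31 members, with a median of -0.075 log2 per hour, against 0.017 over all tested genes. The slopes use the same libraries as the comparisons of genotypes and of times above.

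The m6A pull-down was compared with its input to ask how enriched each RNA was in it relative to other RNA. Such a ratio does not measure the share of an RNA that carries the mark. Relative to all RNA of the libraries, none of the members was higher in the pull-down, where 6.06% of all 14167 tested genes were higher, and 7 were lower, where 14.3% were lower (edgeR). At an unadjusted p under 0.05 2 members were higher and 9 lower, where 13.9% of all tested genes were higher and 19.4% lower. DESeq2 called 1 member higher and 7 lower, where it called 1269 of all tested genes higher and 2036 lower. The descriptions give each pull-down and 1 input the same WT number, though same-numbered libraries deviated together only weakly in 1 of the 3 pairs (r = 0.0708). With that number as a replicate block, 4 members were higher and 13 lower, where 2441 of all tested genes were higher and 2932 lower. The split depended on the scaling. With library size alone, which moved the median of all genes from 0.0096 to 0.22, 7 members were higher and 3 lower. There 3627 of all 14167 tested genes were higher and 1293 lower. With limma on log2(TPM + 1), which moved the median to 0.40, 21 members were higher and 1 lower, where 7236 of all tested genes were higher and 770 lower. With RLE size factors 1 member was higher and 5 lower, where 1002 of all tested genes were higher and 1927 lower. A member's log2 ratio is therefore best read against those medians.

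Tm7sf2 stood lowest relative to other RNA under each scaling tried. It had 9.85, 9.95 and 12.9 CPM in the m6A pull-down, against 24.3, 23.1 and 23.5 CPM in input (log2 ratio -1.12 ± 0.13, edgeR adjusted p = 3.6e-04), with no overlap, and reads of the overlapping gene Vps51 may be counted with it. Fdps had 206, 171 and 212 CPM against 351, 265 and 315 CPM in input (-0.66 ± 0.12, edgeR adjusted p = 0.00413). Ebp, the sterol isomerase, had 26.3, 29.4 and 27.2 CPM against 41.5, 36.6 and 40.1 CPM in input (-0.51 ± 0.09, edgeR adjusted p = 0.00476). Acly, which makes cytosolic acetyl-CoA from citrate, had 604, 589 and 622 CPM against 862, 755 and 787 CPM in input (-0.41 ± 0.07, edgeR adjusted p = 0.00299). These 4 kept their calls with any library left out, though the Acly ratio turned positive on the TPM scale. Fads2 (-0.45 ± 0.13), Idi1 (-0.37 ± 0.11) and Nsdhl (-0.28 ± 0.08) also passed, and their ratios turned positive on the TPM scale. Leaving out the third pull-down or the third input left 4 lower members.

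At the other end of the members, Insig1 had 41.4, 40.7 and 34.2 CPM in the m6A pull-down, against 29.9, 32.5 and 30.7 CPM in input, without overlap. Its log2 ratio of 0.32 ± 0.10 missed the threshold (edgeR adjusted p = 0.0541) and passed with RLE size factors. Elovl6 had 253, 220 and 241 CPM against 208, 206 and 210 CPM in input (0.19 ± 0.07, edgeR adjusted p = 0.0962). Sqle had 296, 269 and 277 CPM against 268, 246 and 257 CPM in input (0.13 ± 0.07, edgeR adjusted p = 0.249). All 3 were higher in each pull-down than in any input. So was Cyp51, at a ratio of only 0.04 ± 0.06 (edgeR adjusted p = 0.706). How many of all genes had no overlap was not counted. Scd2 had 5693, 6471 and 5970 CPM against 6589, 7419 and 6916 CPM in input (-0.21 ± 0.07, edgeR adjusted p = 0.06). Hmgcs1 had 2745, 2551 and 2763 CPM against 2972, 2751 and 2985 CPM in input (-0.11 ± 0.06, edgeR adjusted p = 0.238). With the replicate block Scd2 and Hmgcs1 passed as lower (edgeR adjusted p = 2.5e-06 and 0.00786) and Insig1 and Sqle as higher (edgeR adjusted p = 0.00642 and 0.0326). Srebf2 (0.0032 ± 0.08) and Fasn (0.05 ± 0.08) were near 0. Over all members the median was -0.089, against 0.0096 over all genes.

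In the YTHDF2 series the titles and the descriptions name Input and YTHDF2 the other way round, and the count columns carry the description names, which were used here. By mean log CPM over 13637 genes the libraries named Input in the descriptions correlated with the m6A inputs at r = 0.9517 and those named YTHDF2 at r = 0.9113, across genes, which are not independent replicates. If the titles are right, each sign of YTHDF2 over input below turns round, and 15 members would be higher and none lower for YTHDF2 over IgG. In that ratio 2422 of all tested genes would be higher and 2873 lower.

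None of the members was higher in the YTHDF2 pull-down than in input, where 30.7% of all 14255 tested genes were higher, and 17 were lower, where 17.5% were lower (edgeR). At an unadjusted p under 0.05 none was higher and 18 were lower, where 34.5% of all tested genes were higher and 20.5% lower. DESeq2 called no member higher and 20 lower, where it called 3740 of all tested genes higher and 3402 lower. The IgG pull-down, the background of the method, gave a like count: over the same inputs none of the members was higher, where 20.2% of all genes were higher, and 15 were lower, where 17.0% were lower (edgeR). Its unadjusted p under 0.05 gave no member higher and 19 lower, where 24.5% of all tested genes were higher and 21.9% lower. By DESeq2 no member was higher and 18 were lower, where 2898 of all tested genes were higher and 2946 lower. The median log2 ratio of the members was -0.50 for YTHDF2 over input and -0.59 for IgG over input, against 0.23 and 0.00019 over all tested genes. Because both ratios share the inputs, they are given side by side and not compared as independent. With limma on log2(TPM + 1), which moved the median of all genes to 0.45 for YTHDF2 over input, 2 members were higher and 7 lower. There 5980 of all tested genes were higher and 1233 lower.

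Fads2 had 89.1, 86.1 and 84.5 CPM in the YTHDF2 pull-down and 119, 130 and 118 CPM in the IgG pull-down, against 266, 250 and 222 CPM in input. The log2 ratio over input was -1.51 ± 0.14 for YTHDF2 (edgeR adjusted p = 1.9e-05) and -1.01 ± 0.14 for IgG (edgeR adjusted p = 2.9e-04), and the 3 kinds of library did not overlap. Fads1 had 162, 163 and 191 CPM in the YTHDF2 pull-down and 191, 234 and 229 CPM in the IgG pull-down, against 394, 482 and 353 CPM in input (-1.25 ± 0.17 for YTHDF2 and -0.91 ± 0.17 for IgG). Scd2 had 3736, 5049 and 3956 CPM with YTHDF2 and 4317, 4202 and 3491 CPM with IgG, against 8019, 7165 and 7830 CPM in input (-0.85 ± 0.17 and -0.94 ± 0.17). The pull-downs overlapped each other for Scd2. Scd1, another desaturase, passed in neither ratio (-0.41 for YTHDF2, edgeR adjusted p = 0.068, and -0.17 for IgG, edgeR adjusted p = 0.476). Hmgcs1 had 1804, 2308 and 1779 CPM in the YTHDF2 pull-down and 1666, 1547 and 1387 CPM in the IgG pull-down, against 3306, 2395 and 2594 CPM in input (-0.49 ± 0.18 and -0.85 ± 0.18). Scap had 8.84, 13.0 and 12.2 CPM with YTHDF2 and 12.3, 19.1 and 16.2 CPM with IgG, against 22.8, 38.4 and 19.0 CPM in input (-1.24 ± 0.28 for YTHDF2, edgeR adjusted p = 0.00352, and -0.75 ± 0.28 for IgG, edgeR adjusted p = 0.0511). Srebf2 had 29.9, 32.7 and 28.6 CPM with YTHDF2 and 34.4, 53.2 and 39.0 CPM with IgG, against 61.5, 70.6 and 34.1 CPM in input (-0.87 ± 0.25 and -0.39 ± 0.25). For both Scap and Srebf2 the second input was the highest and the third the lowest. Without the second input Srebf2 missed the threshold for YTHDF2 over input (edgeR adjusted p = 0.0663). Insig1 had 39.1, 31.4 and 29.1 CPM with YTHDF2 and 45.3, 35.0 and 38.9 CPM with IgG, against 53.2, 43.1 and 44.2 CPM in input. Its log2 ratio was -0.50 ± 0.17 for YTHDF2 (edgeR adjusted p = 0.0337) and -0.24 ± 0.17 for IgG (edgeR adjusted p = 0.308). Fasn had 88.6, 102 and 60.5 CPM with YTHDF2 and 97.8, 136 and 75.4 CPM with IgG, against 124, 119 and 61.1 CPM in input. The other genes lower in the YTHDF2 pull-down were Nsdhl, Mvd, Stard4, Cyp51, Acat2, Idi1, Mvk, Hsd17b7, Ebp and Pmvk, with log2 ratios of -0.58 to -1.08. Of the 17 genes lower over input, 11 kept their calls with any library left out. Hmgcs1 missed the threshold in 5 of the 9 such fits and Mvk in 4. Hsd17b7, Ebp and Insig1 missed it in 3 each and Srebf2 in 1.

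Set against IgG, 2 members were higher in the YTHDF2 pull-down, where 14.3% of all tested genes were higher, and 1 was lower, where 0.330% were lower (edgeR). With the replicate number as a block, which the data paired in this series, 3 were higher and 3 lower. That fit called 3134 of all tested genes higher and 1268 lower. Elovl6 had 159, 229 and 190 CPM in the YTHDF2 pull-down, against 86.2, 84.6 and 78.1 CPM in the IgG pull-down and 192, 178 and 167 CPM in input. Its log2 ratio of YTHDF2 over IgG was 1.22 ± 0.16 (edgeR adjusted p = 2.7e-04) and kept its call with any library left out. Over input the ratio was 0.11 ± 0.16 (edgeR adjusted p = 0.599), the IgG pull-down being the low one (-1.11 ± 0.16 over input, edgeR adjusted p = 4.1e-04). Sqle had 231, 270 and 215 CPM in the YTHDF2 pull-down, against 172, 158 and 121 CPM in the IgG pull-down and 236, 208 and 174 CPM in input. It was higher than IgG by 0.66 ± 0.18 (edgeR adjusted p = 0.0285), and missed the threshold without the second YTHDF2 library or IgG replicate 2 or 3, and with RLE size factors. Fads2 was lower than IgG by a log2 ratio of -0.50 ± 0.14 (edgeR adjusted p = 0.0313), and missed the threshold without the first IgG library or without replicate 2 or 3 of either pull-down. The other fixed genes did not pass over IgG: Hmgcs1 at 0.36 ± 0.18, Insig1 at -0.26 ± 0.17, Srebf2 at -0.47 ± 0.25, Fasn at -0.30 ± 0.30 and Scd2 at 0.09 ± 0.17. The count of higher members was 1 without the second YTHDF2 library or IgG replicate 2 or 3. With RLE size factors 1 was higher and 1 lower, where 1752 of all tested genes were higher and 326 lower. On the TPM scale 2 were higher and none lower, where 1885 of all tested genes were higher and 17 lower. Of 13637 genes tested in both pull-down series, 361 (2.65%) passed as higher for m6A over input, for YTHDF2 over input and for YTHDF2 over IgG, and none of the 31 members was among them. With the titles' names 16 genes (0.117%) passed in all 3, again with none of the members.

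**Figure D4:**
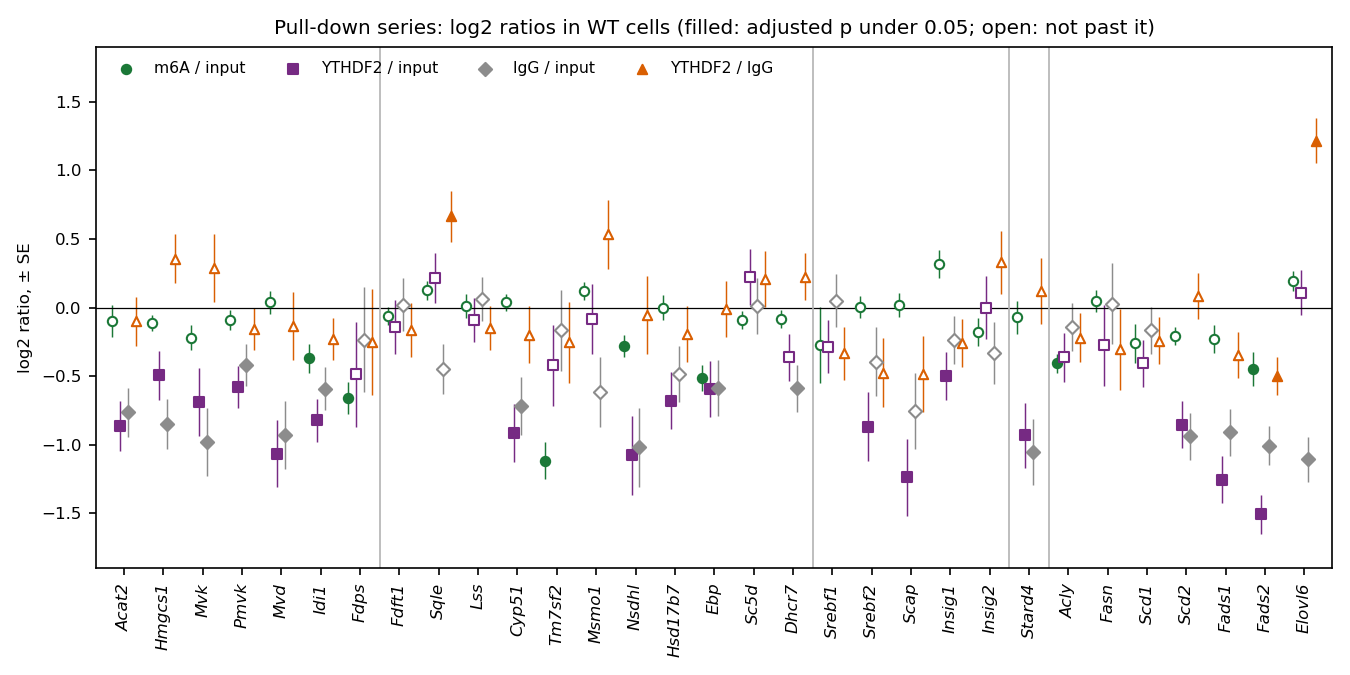
Log2 ratios (vertical axis, ± SE) of each of the 31 genes in WT cells for m6A pull-down over input (green circles), YTHDF2 over input (purple squares), IgG over input (grey diamonds) and YTHDF2 over IgG (orange triangles), filled where the adjusted p was under 0.05. YTHDF2 and IgG over input lie below 0 for most genes, and Elovl6 stands highest for YTHDF2 over IgG.

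Other genes of the same pathways were described by list. Over all tested genes, 7.71% were higher and 9.89% lower in libraries labelled cKO at 0 h. At 2 h the shares were 8.52% and 8.54%, and at 4 h 11.0% and 9.11%. Of 14 other genes of sterol and isoprenoid synthesis and SREBP processing, 1 was higher and 1 lower at each time. Their median log2 difference was 0.080 at 0 h. The lower one at 0 h was Ggps1, geranylgeranyl diphosphate synthase, with 120, 121 and 103 CPM in libraries labelled cKO against 221, 224 and 201 CPM in WT libraries (-0.91 ± 0.24, edgeR adjusted p = 0.0178), and the higher one Mbtps1, a protease that cuts SREBP (0.59 ± 0.20, edgeR adjusted p = 0.0468). At 4 h against 0 h in libraries labelled cKO 4 of the 14 were lower and 1 higher, where 18% of all tested genes were lower and 12.1% higher. In the WT comparison 2 were lower and none higher, where 24.2% of all tested genes were lower and 15.6% higher.

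Of 16 tested genes of sterol uptake and efflux, 2 were higher at 0 h in libraries labelled cKO and none lower. Of 19 tested other fatty acid and glycerolipid genes, 3 were higher and 5 lower at 0 h. Over all tested genes the shares at 0 h were 7.71% higher and 9.89% lower. Gpam, the first enzyme of glycerolipid synthesis, had 4.31, 4.05 and 8.44 CPM in libraries labelled cKO, against 25.4, 26.2 and 27.6 CPM in WT libraries (-2.24 ± 0.48, edgeR adjusted p = 0.0066). Elovl2, an elongase of polyunsaturated fatty acids, had 44.1, 68.2 and 26.0 CPM against 283, 260 and 264 CPM in WT libraries (-2.54 ± 0.66, edgeR adjusted p = 0.0166). In the pull-downs, Rnf139, a ubiquitin ligase of the sterol-sensing machinery, was higher with YTHDF2 both over input (1.39 ± 0.16, edgeR adjusted p = 5.5e-05) and over IgG (1.58 ± 0.16, edgeR adjusted p = 3.8e-05), 2 ratios that share the YTHDF2 libraries. With the titles' names its ratio was -1.39 over input and 0.19 over IgG (edgeR adjusted p = 0.378).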

How the data were processed

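RNA was measured in 33 libraries of mouse hippocampal neural stem cells. The tools in the submitters' processing notes are bcl2fastq 2.17.1.14, Trimmomatic 0.32 and STAR 2.5.2a, with the build GRCm38. How reads were counted, on which strand and with which annotation is not given in the sources used here. Per the labels' protocols, RNA-seq libraries followed SMART-seq2 and pull-down libraries a modified SMART-seq3, so levels were not compared between series. The authors deposited a whole-number read count and a TPM value per gene symbol. Counts went into all main models, and the deposited TPM values into levels per length and, as log2(TPM + 1) with a pseudocount of 1, into a limma 3.58.1 alternative (deposited TPM, log2 scale computed here).

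Counts were modelled in edgeR 4.0.16 (R 4.3.3; quasi-likelihood, TMM, filterByExpr at its defaults) separately for the 3 series, over 14029, 14167 and 14255 genes. All 31 members passed the filter in each series. Tests were two-sided contrasts over all libraries of a series, with 12, 4 and 6 residual degrees of freedom (14 for the slope), adjusted by Benjamini-Hochberg over all genes and called under 0.05. Differences carry an SE on the log2 scale, and CPM and TPM are given per library or as mean ± SD. The scripts were tested on simulated data. Alternatives were RLE size factors, library size alone, ribosomal protein genes as reference, DESeq2 1.42.0, no low-count filter, TPM, a replicate block, the compared libraries alone, swapped names in the YTHDF2 series, and each library or culture left out. The members and lists were chosen with earlier results of these data known. In each comparison, values were given for Hmgcs1, Sqle, Insig1, Srebf2, Fasn and Scd2 and for members past the threshold, at most 12 in full by smallest p, and for up to 4 genes of smallest p per other list.

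Same-numbered libraries deviated together within a genotype (lowest r of 18 pairs 0.126) and in the YTHDF2 series (lowest of 9 pairs 0.353), so numbers there pair the libraries; the labels do not state where the pairing comes from. No 2 libraries of a group agreed within sampling noise. Pairs within RNA-seq groups spread more in libraries labelled cKO (chi-square per degree of freedom 33.4 to 173) than in WT (7.10 to 27.6). The main fit used 1 spread per gene for both. With the 6 compared libraries alone, calls at 4 h against 0 h went from 1694 higher and 2528 lower genes to 149 and 1298 in libraries labelled cKO. In WT they went from 2194 and 3402 to 3635 and 4308, so the 2 genotypes' calls over time are not directly comparable. Several members overlap another annotated gene (Fdft1 with Ctsb, Tm7sf2 with Vps51, Srebf1 with Rai1), and Scd1 and Scd2, and Insig1 and Insig2, are paralogs, so reads of these may be split or mixed. Promoter windows are from RefSeq, GRCm38.p6. Windows were not used for Fdps, Fdft1, Sqle, Stard4, Scd1, Scd2 and Fads1. Some genes of the other lists are not reported here.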

Additional observations from a re-analysis of the deposited data

How the results depend on the processing

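Over the single genes named, 2826 values under the alternatives kept their direction and side of the threshold, 405 kept the direction but missed it, 46 newly passed and 41 turned sign. Counts of members called moved by more than 1.5 times as follows, and the cause was not tested. Between genotypes at 0 h there were 2 higher and 3 lower with RLE size factors, 2 higher with library size alone or no low-count filter, 3 higher with DESeq2 or with the 6 compared libraries alone, and 10 lower with ribosomal protein genes as reference or 9 on the TPM scale. The all-gene counts of lower genes at 0 h were 2267 with the ribosomal reference and 2429 on the TPM scale, against 1387 in the main fit. At 2 h 1 was higher with library size alone or DESeq2, and 16 were lower with the ribosomal reference, where 1917 of all tested genes were lower. At 4 h 2 were higher and 8 lower with library size alone, and 1 was higher with DESeq2. For 4 h against 0 h in libraries labelled cKO there were 0 higher and 18 lower with the ribosomal reference, 1 higher on the TPM scale, and 1 higher and 4 lower with the 6 libraries alone, and in WT libraries 2 higher and 5 lower with library size, 0 and 9 with the ribosomal reference, 1 and 5 on the TPM scale, and 16 and 4 with the 6 libraries alone. For m6A over input there were 1 higher with RLE or DESeq2, 7 higher and 3 lower with library size, and 21 higher and 1 lower on the TPM scale. On the TPM scale YTHDF2 over input gave 2 higher and 7 lower, and IgG over input 5 lower, where 1017 of all tested genes were lower for IgG over input. YTHDF2 over IgG gave 1 higher with RLE, 2 lower with DESeq2, and 0 lower without the filter or on the TPM scale. DESeq2 called 801 of all tested genes lower there. With Input and YTHDF2 as the titles name them, YTHDF2 over input gave 17 higher and 0 lower, YTHDF2 over IgG 15 and 0, and IgG over input 1 and 2. The all-gene counts, higher and lower, were then 2490 and 4373, 2422 and 2873, and 47 and 2040 in the same order. The slope difference gave 0 calls under every alternative run.

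With the replicate number as a block there were 8 lower at 0 h, and 1 higher at 2 h and at 4 h, between genotypes, where same-numbered libraries did not pair (r of 27 pairs from -0.152 to 0.0743). The block called 1930 of all tested genes lower at 0 h, 1501 higher at 2 h and 1855 higher at 4 h. For m6A over input, where the lowest of 3 pairs had r = 0.0708, the block gave 4 higher and 13 lower. Where the numbers pair libraries, the block gave 8 higher in libraries labelled cKO at 4 h against 0 h, with Scd2 among them, and 3 lower for YTHDF2 over IgG. It moved no other count there by more than 1.5 times.

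Leaving out a library or culture gave these ranges. Between genotypes, the members higher and lower ran from 0 to 5 and 0 to 8 at 0 h, 0 to 2 and 2 to 18 at 2 h, and 0 to 3 and 4 to 17 at 4 h. At 4 h against 0 h they ran from 3 to 7 and 4 to 9 in libraries labelled cKO and 3 to 13 and 1 to 3 in WT libraries. They ran from 0 to 1 and 4 to 7 for m6A over input, 1 to 3 and 0 to 1 for YTHDF2 over IgG, and the lower ones from 12 to 18 for YTHDF2 over input and 10 to 16 for IgG over input.

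The values that turned sign follow. With the ribosomal reference, 4 h against 0 h, they were -0.71 for Hmgcs1 and -0.00783 for Fads1 in libraries labelled cKO, and -0.22 for Hmgcs1, -0.0703 for Fads1, -0.30 for Fdps and -0.27 for Pmvk in WT libraries. On the TPM scale they were -0.0702 for Fdps and -0.043 for Pmvk in WT libraries, and for m6A over input 0.36 for Hmgcs1, 0.27 for Scd2, 0.073 for Acly, 0.11 for Idi1, 0.029 for Fads2 and 0.20 for Nsdhl. With the titles' names, YTHDF2 over input was 0.49 for Hmgcs1, 0.50 for Insig1, 0.87 for Srebf2, 0.85 for Scd2, 0.68 for Hsd17b7, 0.82 for Idi1, 0.86 for Acat2, 0.93 for Stard4, 1.51 for Fads2, 1.25 for Fads1, 0.58 for Pmvk, 0.92 for Cyp51, 0.69 for Mvk, 1.06 for Mvd, 1.24 for Scap, 0.60 for Ebp and 1.08 for Nsdhl, and YTHDF2 over IgG was 1.01 for Fads2. IgG over input was then 0.23 for Idi1, 0.099 for Acat2, 0.50 for Fads2, 0.34 for Fads1, 0.16 for Pmvk, 0.20 for Cyp51, 0.13 for Mvd, 0.010 for Ebp and 0.057 for Nsdhl. Precision is limited by 3 libraries a group and, for Srebf1, by counts as low as 21 in a library.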
